A study of Mus musculus with 160 samples.

Results

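The genes described here are *Ntrk2*, *Ntrk3*, *Ret*, *Gfra1*, *Gfra2*, *Gfra3*, *Artn* and *Alk*, 8 genes of neurotrophin and GDNF family signaling among the 46078 genes of the count table. They were chosen by name, and each matched 1 row of the table by its Ensembl ID. Of these, 6 encode receptors or co-receptors of the 2 families. *Artn* encodes a ligand, and *Alk* encodes a receptor tyrosine kinase outside both families, so the 8 are not all neurotrophin or GDNF family receptors. The embryos were *Gata3*-GFP +/- mice, which carry a GFP reporter at *Gata3*, and all cells were taken from the aorta-gonads-mesonephros region (AGM), the part of the embryo where the dorsal aorta, the sympathetic chain and the kidney and gonad anlagen lie together. GFP+ and GFP- cells were sorted from 4 cell types. Endothelial cells (ECs; Cdh5+ CD41- CD45-) and hematopoietic cells (HCs; CD41+ CD45+) came from E10.5 embryos, mesenchymal cells (MCs; Pdgfrb+) and sympathetic nervous system cells (SNS; Ngfr+) from E11.5 embryos. Each of the 8 populations was sequenced as 20 pools of 20 cells. For ECs and HCs the paper describes a few biological replicates, each pooled from several GFP+ embryos, from which all pools of a population were sorted. Pools of one population can therefore share embryos and are not independent samples. The labels tie no pool to an embryo or sort, and p-values therefore measure the spread between pools, part of which may be technical. All groups carry the reporter allele.

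Neurotrophins signal through the Trk receptor tyrosine kinases, with TrkB (*Ntrk2*) as the receptor of BDNF and NT-4 and TrkC (*Ntrk3*) as the receptor of NT-3, and through the shared receptor p75 (*Ngfr*). Ligands of the GDNF family bind a lipid-anchored GFRα co-receptor, which presents them to the receptor tyrosine kinase RET: GDNF binds mainly GFRα1 (*Gfra1*), neurturin GFRα2 (*Gfra2*) and artemin (*Artn*) GFRα3 (*Gfra3*). In the sympathetic lineage RET and GFRα3 act in the migration and early axon growth of neuroblasts, and RET with GFRα1 is also needed in the enteric nervous system and the ureteric bud.

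Members of each family resemble one another, and the stretches they share show how far single-end reads could be confused between them. The longest run of identical coding sequence between *Ntrk2* and *Ntrk3* had 23 bases, at positions 1828 to 1850 of the 2466 coding bases of *Ntrk2* and 1831 to 1853 of the 2595 of *Ntrk3*, and that between *Gfra1* and *Gfra2* had 28 bases, at positions 257 to 284 of 1407 and 275 to 302 of 1395 (GRCm38, GENCODE annotation, sense strand).
*Ntrk2* and *Ntrk3*: gacccactcatcatggtctttga
*Gfra1* and *Gfra2*: actgccgctgcaagcggggcatgaagaa
The longest runs between *Gfra1* and *Gfra3*, *Gfra2* and *Gfra3*, and *Ret* and *Alk* had 11, 10 and 14 bases. All of them were far shorter than a sequenced read.

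The bases just upstream of the start sites are shown for *Ntrk2*, the member highest in MCs, and for *Gfra1*, 1 of the receptor genes high in SNS cells, 5′ to 3′ on the gene's strand (RefSeq, GRCm38.p6). For *Ntrk2* these are 250 bases at chr13:58806319-58806568, plus strand, and for *Gfra1* the 62 bases at chr19:58455399-58455460, minus strand, that lie in no annotated exon. The *Gfra1* stretch is upstream of the RefSeq start only. GENCODE places the start of *Gfra1* further upstream, at chr19:58455909, so the stretch lies within the GENCODE span of the gene. Those of *Ret*, *Gfra2*, *Gfra3* and *Ntrk3* were not used here.
*Ntrk2*: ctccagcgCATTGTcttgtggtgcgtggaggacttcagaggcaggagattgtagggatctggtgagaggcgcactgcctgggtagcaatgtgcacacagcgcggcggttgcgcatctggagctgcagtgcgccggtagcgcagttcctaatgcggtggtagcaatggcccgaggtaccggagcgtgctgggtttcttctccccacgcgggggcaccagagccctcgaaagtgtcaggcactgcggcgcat
*Gfra1*: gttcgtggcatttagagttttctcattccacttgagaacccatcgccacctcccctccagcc
Capitals mark the only match to the letters searched on both strands, which were AGATAA or TGATAA or AGATAG or TGATAG for GATA factors, CAGCTG for E-box binding factors, and ACAAAG or ACAATG for SOX factors. The match in *Ntrk2* is ACAATG on the reverse strand, and the *Gfra1* stretch held no match. Of 32851 mouse promoters, 26.5% held a GATA match, 13% the E-box and 25.2% a SOX match in the 250 bases upstream of the start. A match is a description of letters and not a binding site.

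In the annotation (GRCm38, GENCODE release 21), *Ntrk2* spans chr13:58806569-59133970 on the plus strand, *Ntrk3* chr7:78175959-78738012 on the minus strand, *Ret* chr6:118151745-118197718 (minus), *Gfra1* chr19:58235604-58455909 (minus), *Gfra2* chr14:70890120-70979838 (plus), *Gfra3* chr18:34689898-34720387 (minus), *Artn* chr4:117926162-117929763 (minus) and *Alk* chr17:71868972-72604627 (minus). Reads were counted over their exons. Of the exon bases of *Gfra1*, 7.6% overlap *Gm16277* on the opposite strand, and the library type does not keep the strand. The other members share no exon base with another gene.

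Of the 160 pools, 7 did not pass the study's read limits, with 1400824 to 16004756 counts on genes in each pool kept. Levels are given as CPM, a gene's counts scaled to the normalized library size of its pool. *Gata3* itself had means of 188.1, 36.4, 78.7 and 50.2 CPM in GFP+ SNS, MC, EC and HC pools with their usual markers, and of 43.97, 9.92, 12.2 and 6.93 CPM in the GFP- pools of the same cell types. A further 12 pools went against their labels. In 6 SNS pools, 3 GFP+ and 3 GFP-, the raw *Pdgfrb* count exceeded that of *Ngfr*, and *Pdgfrb* was at 116.1 to 248.7 CPM against at most 28.5 CPM in the other SNS pools. These were left out of the SNS comparison by the rule of selection. In 6 MC pools, 3 GFP+ and 3 GFP-, *Ngfr* exceeded *Pdgfrb*, and in the 3 labelled GFP- *Gata3* was at 121.5, 351.1 and 392.1 CPM, above the 18.95 CPM that was the highest value of the other GFP- MC pools. Results on MCs are given with and without these 6 pools, and levels below are those of the other 17 GFP+ and 14 GFP- MC pools. A list of 9 sympathoadrenal genes summed to 164.1 to 3261 CPM in the kept SNS pools and to 24.2 to 96.9 CPM in the 6 left out.

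Each member had its own pattern over the 8 populations, and the plot of all pools shows them side by side. *Ntrk2* and *Ntrk3* were highest in MCs, and *Ret* and the 3 *Gfra* genes in SNS cells. *Ntrk2*, the TrkB receptor, was at 119.1, 189 and 337 CPM (lowest, median and highest pool) in GFP+ MCs and at 61.1, 130 and 170.5 CPM in GFP- MCs. Every MC pool lay above every pool of the other kept populations, whose highest value was 57.8 CPM in a GFP+ HC pool. In SNS cells it was nearly absent, with at most 1.51 CPM in GFP+ and 13.7 CPM in GFP- pools, and in ECs the medians were 0. Among GFP+ HC pools, 13 of 20 had at least 10 counts of *Ntrk2* (median 5.52 CPM).

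*Ntrk3*, the TrkC receptor, was at 17.9, 56.02 and 82.6 CPM in GFP+ MCs and at 1.88, 10.7 and 27.2 CPM in GFP- MCs. In all, 16 of the 17 GFP+ MC pools were above all 14 GFP- pools. SNS pools ranged from 0 to 19 CPM (GFP+) and from 0 to 11.3 CPM (GFP-) and overlapped with GFP- MCs. ECs and GFP- HCs stayed under 1 CPM, and 1 GFP+ HC pool reached 49.8 CPM at a median of 0.

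*Ret*, the signaling receptor of the GDNF family, was at 48.2, 91.5 and 159.3 CPM in GFP+ SNS pools and at 3.71, 15.7 and 100.2 CPM in GFP- SNS pools. GFP+ ECs followed with 3.45, 15.5 and 63.99 CPM, a range that overlapped with that of GFP- SNS cells. The other populations had medians of at most 1.10 CPM, although 1 GFP+ HC pool had 281 CPM, the highest value of all kept SNS, EC and HC pools and of the MC pools with their usual markers.

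*Gfra1*, the GDNF co-receptor, was at 20.9, 48.9 and 65.99 CPM in GFP+ SNS pools and at 37.8, 75.8 and 125.3 CPM in GFP- SNS pools. Outside SNS cells the next population was GFP- MCs (0, 4.33 and 31.9 CPM), which overlapped with the lowest GFP+ SNS pool. *Gfra2*, the neurturin co-receptor, was at 0.759, 8.76 and 31.2 CPM in GFP+ and at 13.2, 28.7 and 44.9 CPM in GFP- SNS pools. GFP+ ECs (0, 6.16 and 25.4 CPM) overlapped with both. *Gfra3*, the artemin co-receptor, was at 3.95, 20.4 and 38.4 CPM in GFP+ and at 70.8 to 164.9 CPM in GFP- SNS pools, and it was the only member of the 8 whose ranges in GFP+ and GFP- SNS pools did not overlap. GFP+ HCs, GFP- MCs and GFP+ MCs came next, with medians of 5.83, 5.10 and 1.68 CPM, and overlapped with one another and with GFP+ SNS cells.

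*Artn*, the ligand of GFRα3, was low throughout. Its medians were 3.81 CPM in GFP- MCs (0 to 13.5), 2.06 CPM in GFP+ MCs (0 to 6.88), 1.44 CPM in GFP- SNS cells (0 to 4.16) and 0 in the other 5 populations, and neighbors in this order overlapped. *Alk*, the receptor gene outside both families, had a median of 0 in all 8 populations. Its highest values were 4.81 CPM in GFP+ MCs, where 4 of 17 pools had at least 10 counts, and 2.57 CPM in GFP- SNS cells.

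**Figure D1:**
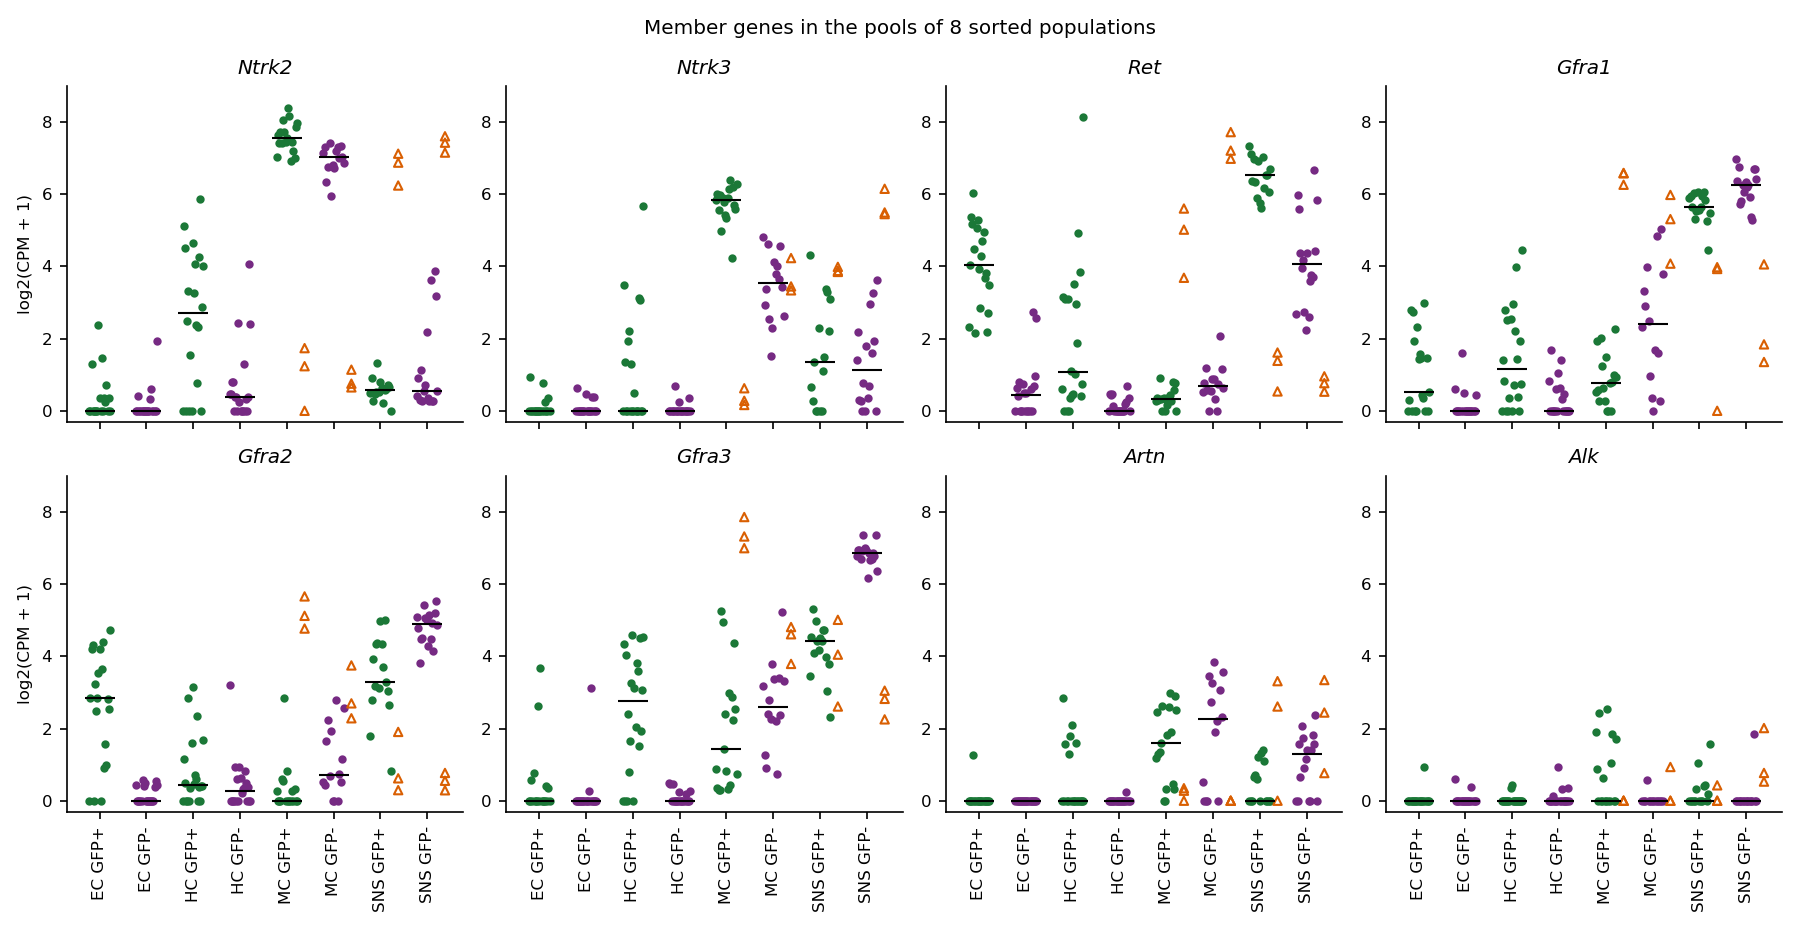
Level of each member gene in every pool of the 8 sorted populations, as log2(CPM + 1) on the y axis, with GFP+ pools in green, GFP- pools in purple, group medians as lines, and the 12 pools whose sort markers went against their labels as orange triangles. *Ntrk2* and *Ntrk3* were highest in MCs, *Ret* and the *Gfra* genes in SNS cells, and *Artn* and *Alk* were low in all populations; the triangles of an SNS population lie at MC levels and those of an MC population at SNS levels.

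Levels of different genes can be compared only per length of exon. Per kb of exon, the mean levels in GFP+ SNS pools were 13.95 CPM per kb for *Ret*, 9.58 for *Gfra3*, 9.28 for *Gfra1* and 3.63 for *Gfra2*. In GFP- SNS pools the order was *Gfra3* (57.97 CPM per kb), *Gfra1* (13.9), *Gfra2* (7.97) and *Ret* (3.81). *Ret* was thus the highest of the 4 in one SNS population and the lowest in the other. In GFP+ MCs *Ntrk2* had 10.4 and *Ntrk3* 1.82 CPM per kb.

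The comparison of GFP+ with GFP- SNS cells asked which genes differ between Ngfr-sorted cells with and without *Gata3* reporter expression. These pools were not shown to hold sympathetic cells only. In GFP- pools, sympathoadrenal genes summed to 164.1 to 794.4 CPM and neural crest and Schwann precursor genes to 1215 to 2093 CPM. In GFP+ pools the same sums were 818.9 to 3261 CPM and 582 to 1750 CPM. *Ret* was higher in GFP+ SNS cells, and all 3 GFRα co-receptor genes were lower. Of the 8 members, 6 had at least 10 counts in at least 5 pools and were among the 15658 genes tested. Of these 6, 1 was called higher and 3 lower by edgeR's quasi-likelihood test (adjusted p under 0.01, log2 fold change beyond 0.1). Among all genes tested, 4.94% were called higher and 5.48% lower. The median log2 fold change was -0.86 over the 6 members and -0.01 over all genes tested.

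*Ret* had a mean of 94.4 ± 33.8 CPM (SD, n = 15 pools) in GFP+ and 25.8 ± 26.9 CPM (n = 16) in GFP- SNS cells. The log2 fold change was 1.89 ± 0.36 (standard error), and the adjusted p was 0.000202. Of the GFP+ pools, 6 lay above all GFP- pools, and the GFP- pools were spread widely, with 4 of 16 at 47.3 CPM or more in the plot of the receptor genes.

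*Gfra3* had 19.1 ± 8.97 CPM in GFP+ and 115.8 ± 24.2 CPM in GFP- SNS cells, a log2 fold change of -2.60 ± 0.20 (adjusted p 2.27e-11), and all 15 GFP+ pools lay below all 16 GFP- pools. *Gfra2* had 12.8 ± 9.42 and 28.2 ± 9.01 CPM (log2 fold change -1.13 ± 0.31, adjusted p 0.00787), with 9 of 15 GFP+ pools below all GFP- pools. *Gfra1* had 50.8 ± 12.7 and 76.1 ± 24.5 CPM (log2 fold change -0.58 ± 0.15, adjusted p 0.00623), and its ranges overlapped in all but 2 GFP+ pools. The changes thus grew in size from *Gfra1* to *Gfra3*, and the *Gfra1* and *Gfra2* calls were close to the threshold: when each pool was left out in turn, *Gfra1* lost its call in 10 and *Gfra2* in 19 of 31 fits (adjusted p up to 0.014 and 0.0148), while *Ret* and *Gfra3* kept theirs in all 31. In these pools of 20 cells, fewer cells of a type and less RNA per cell cannot be told apart.

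*Ntrk3* and *Artn* did not pass. *Ntrk3* had 3.83 ± 5.32 CPM in GFP+ and 2.59 ± 3.44 CPM in GFP- pools (log2 fold change 0.56 ± 0.77, 95% interval -0.94 to 2.07, adjusted p 0.684). *Artn* had 0.487 ± 0.617 and 1.39 ± 1.28 CPM (log2 fold change -1.47 ± 0.76, interval -2.96 to 0.01, adjusted p 0.198). *Ntrk2* and *Alk* had too few counts to be tested.

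**Figure D2:**
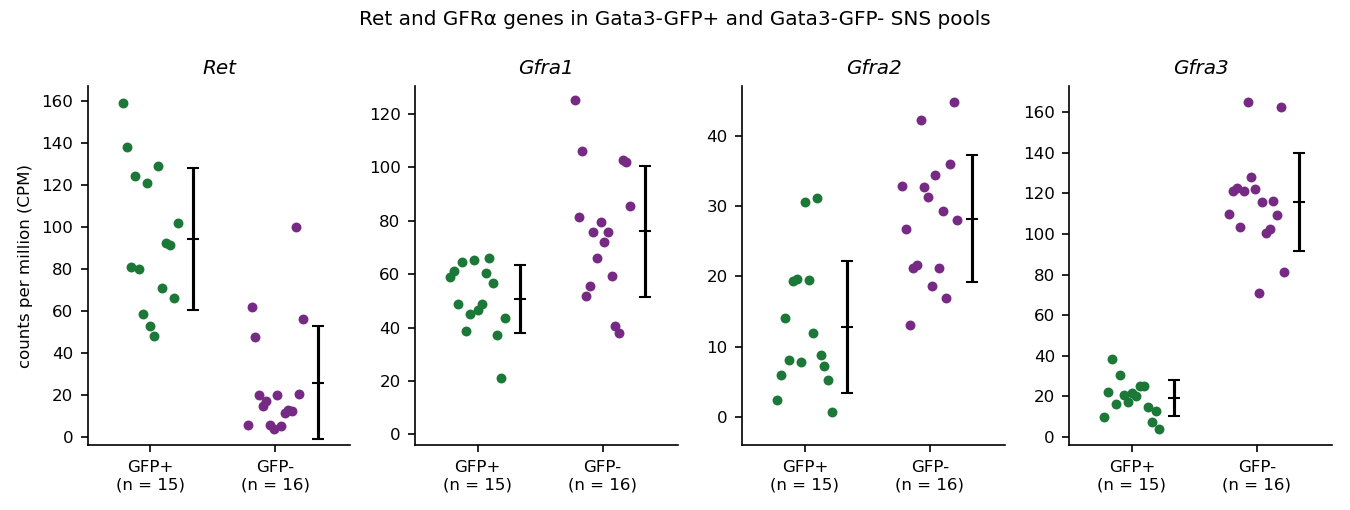
CPM (y axis, scaled for each gene) of *Ret*, *Gfra1*, *Gfra2* and *Gfra3* in the 15 GFP+ (green) and 16 GFP- (purple) SNS pools, with the mean and SD beside each group. *Ret* is higher in GFP+ pools with overlap, *Gfra3* separates the groups with no overlap (3.95 to 38.4 against 70.8 to 164.9 CPM), and *Gfra1* and *Gfra2* are lower in GFP+ pools with overlap.

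With the 6 SNS pools of high *Pdgfrb* kept, *Gfra3* was the only member still called (log2 fold change -2.38, adjusted p 1.07e-05), at a background of 3.87% of genes called in either direction. *Ret* then had a log2 fold change of 1.87 (adjusted p 0.0202), and *Gfra1* and *Gfra2* had -0.55 and -1.11 (adjusted p 0.404 and 0.148). When libraries were scaled to the ERCC spike-in RNAs, the median of all genes moved by 0.44 on the log2 scale toward GFP+ cells. On that scale *Ret* (2.28) and *Gfra3* (-2.10) were called, where 26.2% of genes were higher and 2.32% lower, and *Gfra1* (-0.13, adjusted p 0.596) and *Gfra2* (-0.60, adjusted p 0.146) were not. In one fit that also held the MC pools, the 6 of high *Ngfr* included, *Gfra3* stayed called (-2.59, adjusted p 0.00318) and *Ret* did not (1.89, adjusted p 0.131).

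Other genes of the 2 pathways moved in part in SNS cells. Of 51 such genes, 41 were tested, 2 were higher and 8 lower in GFP+ pools, and their median log2 fold change was -0.00, so most of them did not pass. With ERCC scaling 9 of the 41 were higher and 6 lower (median 0.49), and with the 6 SNS pools of high *Pdgfrb* kept none was higher and 3 were lower. Over all genes tested, 4.94% were higher and 5.48% lower, and with ERCC scaling 26.2% and 2.32%. With the 6 pools kept, 3.87% of all genes were called in either direction. The ligand genes that passed were all lower in GFP+ SNS cells. Among them *Gdnf*, *Ntf3* and *Ntf5* had a median of 0 in GFP+ pools and at most 1.85, 2.45 and 0.327 CPM there. These 3 entered the test mainly through GFP- pools, so the filter on low counts largely set their shared direction. *Gdnf*, the ligand of GFRα1, had 0.171 ± 0.482 CPM in GFP+ and 4.46 ± 4.24 CPM in GFP- pools (log2 fold change -4.49 ± 0.79, adjusted p 8.04e-05). The neurotrophin genes *Ntf3* (NT-3; -3.48, adjusted p 0.00522) and *Ntf5* (NT-4; -4.86, adjusted p 0.000303) were also lower, each from a mean of under 3 CPM in GFP- pools. With the 6 SNS pools kept, the *Ntf3* difference was no longer called (0.16, adjusted p 0.949).

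*Ptn* and *Mdk*, which encode pleiotrophin and midkine, heparin-binding growth factors reported to act on ALK among other receptors, were lower too. *Ptn* had 7.61 ± 2.98 CPM in GFP+ and 67.95 ± 40.9 CPM in GFP- pools (log2 fold change -3.15, adjusted p 5.33e-09), and *Mdk* had 470 and 613 CPM (-0.39, adjusted p 0.000105). Neither was called with the 6 pools kept (-0.57 and -0.23, adjusted p 0.713 and 0.486). On the ERCC scale *Mdk* had 0.07 (adjusted p 0.601).

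The ligand genes *Bdnf* (8.66 against 4.56 CPM, adjusted p 0.142) and *Nrtn*, which encodes neurturin (0.723 against 4.08 CPM, adjusted p 0.0394), did not pass. Among further receptors, *Gfra4* (adjusted p 0.763) and the co-receptors *Gas1* (62.8 against 94.5 CPM, adjusted p 0.0303) and *Ncam1* (156.4 against 124.4 CPM, adjusted p 0.0559) were not called, and *Sort1*, which encodes sortilin, a partner of p75, was at 59.7 CPM in both populations. The related sorting receptor genes *Sorcs1* and *Sorcs2* moved in opposite directions (0.73 and -1.49, adjusted p 0.00509 and 4.44e-05), and neither was called with the 6 pools kept (adjusted p 0.238 and 0.105). *Ngfr* was lower in GFP+ pools (45.5 to 150.9 CPM against 187 to 336 CPM), but it was the antigen of the sort.

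Downstream of the receptors, 1 of 17 adaptor and effector genes tested was called, 6 were higher with ERCC scaling, and none was called with the 6 pools kept. Over all genes tested, 4.94% were higher and 5.48% lower, and with ERCC scaling 26.2% and 2.32%. With the 6 pools kept, 3.87% were called in either direction. The 1 called was *Shc1*, an adaptor that binds activated Trk receptors and RET, at 77.04 ± 26.3 CPM in GFP+ and 44.9 ± 10.8 CPM in GFP- pools (0.78 ± 0.14, adjusted p 0.000112). Of 8 feedback inhibitor genes, *Spred1*, which encodes an inhibitor of the Ras pathway, was lower (-0.80, adjusted p 0.000197), and the other 7 were not called. On the ERCC scale *Spred1* had -0.34 (adjusted p 0.153) and none of the 8 was called.

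Markers of the cell types an Ngfr gate can hold moved with these differences. Of 9 sympathoadrenal genes, 8 were called higher in GFP+ SNS pools, and their summed level was 819 to 3261 CPM in GFP+ and 164 to 794 CPM in GFP- pools. With the 6 SNS pools of high *Pdgfrb* kept, 4 of the 9 were called higher. Over all genes tested, 4.94% were higher and 5.48% lower, and 3.87% were called in either direction with those pools kept. Of 7 neural crest and Schwann precursor genes, 2 were lower and none higher (582 to 1750 against 1215 to 2093 CPM), and 1 was lower with those pools kept. All 8 mesenchymal markers were lower (99.9 to 332 against 380 to 910 CPM). This list holds *Pdgfrb*, the gene by which 6 pools were left out, and none of its 8 genes was called with those pools kept. Also lower were all 3 tested of 4 coelomic and adrenal markers, whose median sums were 0.729 and 100.5 CPM, and all 3 tested of 8 nephric markers, whose median sums were 0.217 and 13.8 CPM. In GFP+ pools 3 of these 4 and all of these 8 markers had a median of 0, so the filter on low counts favored this direction. With the 6 pools kept, 2 of 3 tested coelomic and adrenal markers and 3 of 4 tested nephric markers were lower. The part of these cell types in the differences of *Ret* and the *Gfra* genes was not tested.

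Within each SNS population, pools differed in *Th*, which encodes tyrosine hydroxylase, the rate-limiting enzyme of catecholamine synthesis and a marker of differentiation. In the 15 GFP+ pools *Th* ranged from 8.81 to 349 CPM. Pools with more *Th* had less *Gfra3* (Pearson r = -0.71, permutation p 0.00187, adjusted 0.00935; Spearman rho = -0.73, permutation p 0.00265, adjusted 0.0132) and more *Ntrk3* (r = 0.77, permutation p 0.00124, adjusted 0.00935; rho = 0.76, permutation p 0.00187, adjusted 0.0132). Without the 2 pools farthest from the median of *Th*, r was -0.70 and 0.71. *Gfra2* had r = -0.63 (permutation p 0.0123, adjusted 0.0307) and rho = -0.60 (permutation p 0.0218, adjusted 0.0545), and r = -0.57 without those 2 pools. *Ret* (r = 0.27, permutation p 0.334) and *Gfra1* (r = -0.21, permutation p 0.487) showed no detectable relation.

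In the 16 GFP- pools, where *Th* ranged from 0 to 28.98 CPM, *Ret* rose with *Th* (r = 0.70, permutation p 0.00287, adjusted 0.00957; rho = 0.68, permutation p 0.00513, adjusted 0.0171), with r = 0.67 without the 2 farthest pools. *Gfra3* (r = -0.15, permutation p 0.585) and *Ntrk3* (r = 0.22, permutation p 0.423) showed no detectable relation there. In all, 10 relations were computed with two-sided permutation tests, and whether a relation differs between the 2 populations was not tested. The correlation of the same genes with the number of counts per pool was between -0.31 and 0.28 for *Gfra3* and *Ntrk3* in GFP+ pools and -0.46 for *Ret* in GFP- pools.

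**Figure D3:**
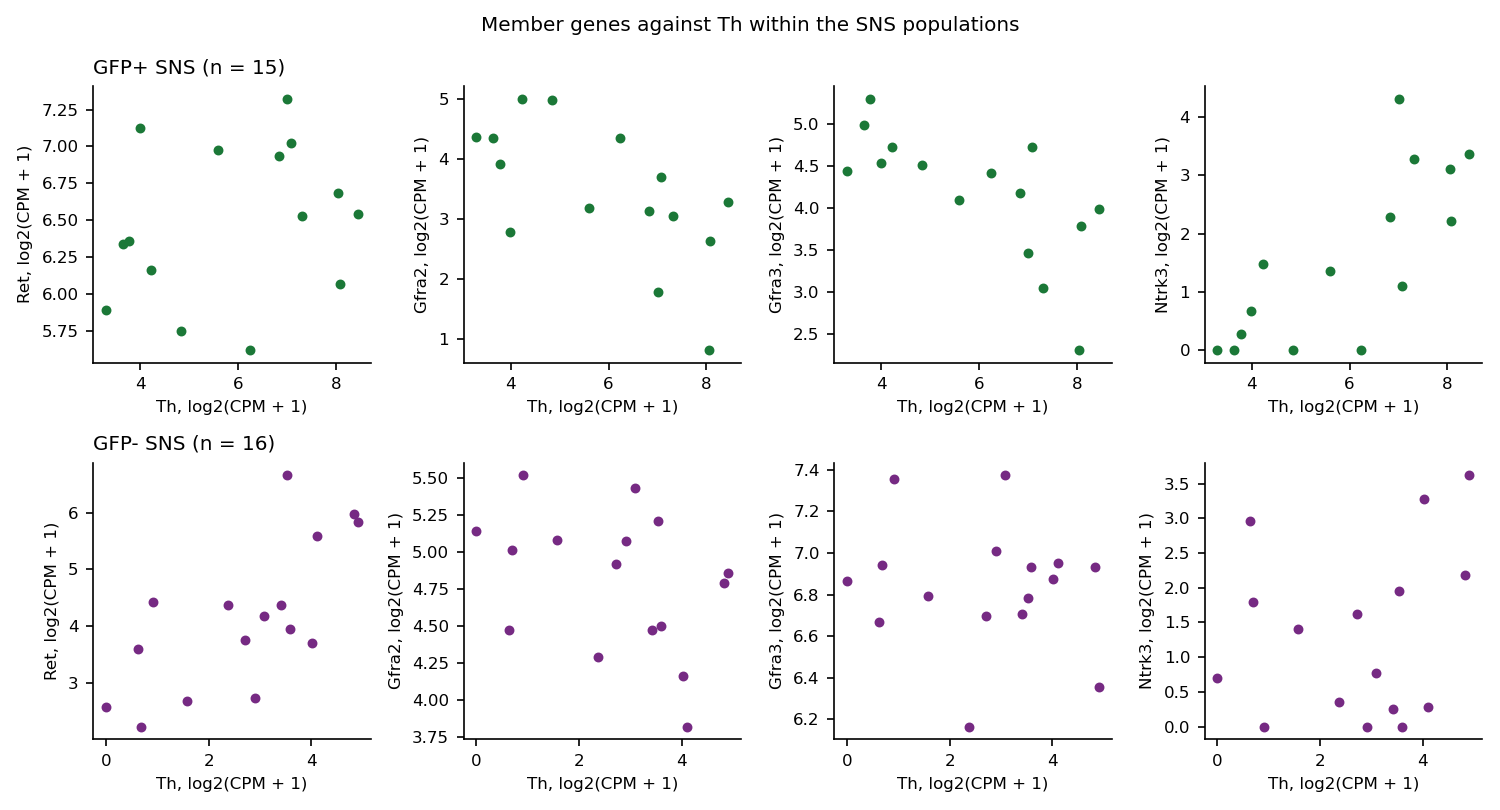
*Ret*, *Gfra2*, *Gfra3* and *Ntrk3* (y axes, log2(CPM + 1)) against *Th* (x axes, log2(CPM + 1)) in the 15 GFP+ SNS pools (upper row) and the 16 GFP- SNS pools (lower row), 1 point per pool. *Gfra3* falls and *Ntrk3* rises with *Th* in GFP+ pools (r = -0.71 and 0.77), and *Ret* rises with *Th* in GFP- pools (r = 0.70).

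In mesenchymal cells the comparison of GFP+ with GFP- pools turned on the Trk receptors. Over all passing pools (20 and 17), 7 members were tested and *Ntrk3* was the only one called, with a log2 fold change of 1.92 ± 0.44 (adjusted p 0.00383) at 46.6 and 12.3 CPM. Among 16026 genes tested, 2.21% were called higher and 2.15% lower. Without the 6 MC pools of high *Ngfr*, 5 members were tested, and 5.52% of genes were called higher and 4.89% lower. *Ntrk3* was then higher by 2.16 ± 0.27 (54.8 ± 16.8 against 12.2 ± 7.95 CPM, adjusted p 3.24e-07), and *Ntrk2* was higher by 0.66 ± 0.14 (199.7 ± 59.8 against 126.5 ± 31.9 CPM, adjusted p 0.000954). *Gfra1* was lower (log2 fold change -2.96 ± 0.68, 1.07 ± 1.17 against 8.37 ± 10.2 CPM, adjusted p 0.00176). In the fit of all passing pools *Gfra1* had a log2 fold change of 0.03, and the 3 GFP+ MC pools of high *Ngfr* held 75.8, 94.8 and 95.4 CPM of it.

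*Gfra3* and *Artn* did not pass in MCs in either fit (adjusted p 0.195 and 0.899 for *Gfra3*, 0.593 and 0.46 for *Artn*). Of the ligand genes, *Gdnf* was called higher in GFP+ MCs without the 6 pools, with a mean of 18.04 ± 11.2 CPM against 3.21 ± 5.42 CPM, and it was not called with them. Of the 51 other pathway genes 41 were tested in MCs without the 6 pools. *Gab1*, *Gdnf*, *Nradd*, *Shc1* and *Sort1* were higher and *Gas1* was lower, with a median log2 fold change of 0.19 over the 41 and 0.01 over all genes tested. Over all passing pools 41 were tested as well, only *Gab1* and *Sort1* were higher and none was lower. Their median log2 fold change was then -0.003, against -0.01 over all genes tested. Of the 8 mesenchymal markers, 4 were higher and 1 lower in GFP+ MCs without the 6 pools, with sums of 3562 to 5442 against 2528 to 4045 CPM. Over all passing pools none of the 8 was called.

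**Figure D4:**
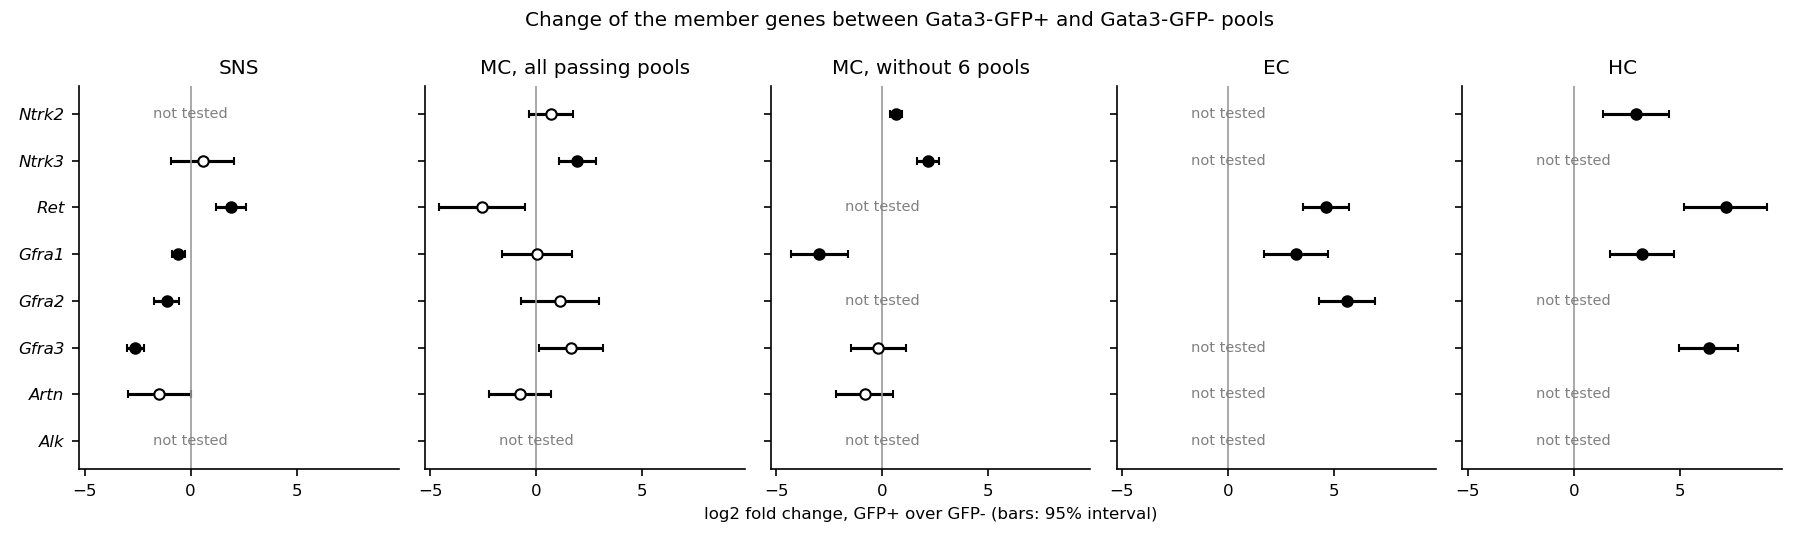
Log2 fold change of GFP+ over GFP- pools (x axis; bars are 95% intervals) of each member in SNS cells, in MCs with all passing pools, in MCs without the 6 pools of high *Ngfr*, in ECs and in HCs; filled points passed the threshold and open points did not. *Ret* was higher in GFP+ SNS cells, ECs and HCs, the *Gfra* genes were lower in GFP+ SNS cells and higher where tested in ECs and HCs, and *Ntrk3* was higher in GFP+ MCs. In ECs and HCs the members tested reached the filter on low counts mainly through GFP+ pools.

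SNS cells and MCs, both from E11.5 embryos, were compared within GFP+ and within GFP- cells. These comparisons use the same pools as those above and are not independent of them. In GFP+ cells *Ntrk2* was lower in SNS cells (log2 fold change -8.34 ± 0.68, 0.531 against 169.9 CPM, adjusted p 4.19e-12), as was *Ntrk3* (-3.602 ± 0.65, adjusted p 2.43e-05), and *Ret* was higher by 4.22 ± 0.67 (94.4 against 4.82 CPM, adjusted p 3.32e-06). All 8 members were tested, 1 was higher and 2 were lower, and among all genes 14.9% were higher and 17.4% lower. Without the 3 GFP+ MC pools of high *Ngfr*, *Gfra1* (5.61 ± 0.37, adjusted p 6.56e-15) and *Gfra2* (4.71 ± 0.69, adjusted p 5.73e-07) were also higher in SNS cells, *Ret* was higher by 8.25 ± 0.27 (adjusted p 2.47e-23), and *Artn* was lower (-2.40 ± 0.74, adjusted p 0.00721), at 18.9% of genes higher and 19.6% lower. *Gfra3* did not pass (1.46 ± 0.57, adjusted p 0.033).

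In GFP- cells *Ntrk2* (-5.33 ± 0.70, adjusted p 5.87e-07) and *Ntrk3* (-2.22 ± 0.57, adjusted p 0.0036) were lower in SNS cells. *Gfra1* (2.44 ± 0.47, adjusted p 0.000187), *Gfra2* (3.33 ± 0.45, adjusted p 7.47e-07) and *Gfra3* (3.49 ± 0.34, adjusted p 2.37e-09) were higher. Of 7 members tested, 3 were higher and 2 lower, at 6.52% and 7.62% of all genes. *Ret* had a log2 fold change of -0.20 (adjusted p 0.907) with the 3 GFP- MC pools of high *Ngfr*, which held 125.6 to 210.2 CPM of it, and of 5.01 ± 0.56 (adjusted p 9.42e-09) without them, where 11.3% of genes were higher and 10.8% lower. With the 3 GFP- SNS pools of high *Pdgfrb* kept, 5.66% of genes were called, and *Ntrk2* (-1.86, adjusted p 0.145) and *Ntrk3* (-0.24, adjusted p 0.874) were not.

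The fitted change with GFP differed between SNS cells and MCs for *Ret* and *Gfra3*. In one fit of the 4 E11.5 populations the GFP+ against GFP- change of *Ret* was larger in SNS cells by 4.45 ± 1.11 (log2, adjusted p 0.00248), and that of *Gfra3* was lower (-4.21 ± 0.85, adjusted p 0.0002). Of 17589 genes, 4.88% were called in the first and 5.24% in the second direction. Without the 6 MC pools the differences were 3.23 ± 0.72 and -2.41 ± 0.65 (adjusted p 0.000639 and 0.0052), and *Gfra1* (2.46 ± 0.57, adjusted p 0.0011) and *Ntrk2* (-2.92 ± 0.59, adjusted p 0.000165) were called as well, at 4.73% and 5.64% of genes. Of the 6, the 3 labelled GFP- held 125.6 to 210.2 CPM of *Ret*. In the other MC pools *Ret* had means of 0.314 (GFP+) and 0.783 CPM (GFP-), too low to be ranked. It reached 10 counts in 0 of 17 and 1 of 14 of them, so the size of its difference is no bound. *Ntrk2* had medians of 0.49 (GFP+) and 0.469 CPM (GFP-) in kept SNS pools, so the size of its difference is no bound either.

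In endothelial cells 3 members were tested, *Ret*, *Gfra1* and *Gfra2*, and all 3 were higher in GFP+ pools, where 19.5% of 15073 genes tested were called higher and 16.5% lower. At least 10 counts were reached in 19 GFP+ and 2 GFP- pools for *Ret*, 14 and 0 for *Gfra2*, and 5 and 0 for *Gfra1*. None would have been tested on its GFP- pools alone, so the filter on low counts largely set their shared direction. *Ret* had 20.7 ± 16.04 CPM (n = 19) in GFP+ and 0.793 ± 1.59 CPM (n = 20) in GFP- ECs, a log2 fold change of 4.62 ± 0.56 (adjusted p 3.8e-09). All 19 GFP+ pools had at least 10 counts of it, and 15 lay above all GFP- pools. *Gfra2* had 8.53 ± 7.92 CPM in GFP+ ECs (5.62 ± 0.67, adjusted p 2.9e-09), and 14 GFP+ pools had at least 10 counts of *Ret* and of *Gfra2* together. No GFP- pool had more than 2 counts of *Gfra2*, 8 in all, so the size of its fold change rests on the fit and is no bound. *Gfra1* had at least 10 counts in 5 GFP+ EC pools only (1.79 ± 2.27 against 0.165 ± 0.462 CPM, 3.22 ± 0.77, adjusted p 0.000578).

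All 5 tested genes of the 8 GDNF family receptors and co-receptors were higher in GFP+ ECs, *Gas1* and *Ncam1* being the others, and no GDNF family ligand gene had enough counts to be tested. For *Ret*, *Gfra1* and *Gfra2* the filter on low counts largely set this direction, as given above. With ERCC scaling, which moved the median of all genes from 0.10 to -0.60, 6.31% of genes were higher and 37.7% lower. *Ret* (4.10, adjusted p 3.82e-07), *Gfra1* (2.88, adjusted p 0.00274) and *Gfra2* (4.89, adjusted p 5.2e-08) were still called on that scale, as was *Gas1*, and *Ncam1* was not. *Th* was at most 1.08 CPM and *Sox10*, which marks neural crest and Schwann precursors, at most 0.711 CPM in any GFP+ EC pool. Summed levels of other marker lists were higher in GFP+ than in GFP- ECs. Mesenchymal markers summed to 25.8 to 1547 against 3.88 to 72.5 CPM (7 of 7 tested were higher), epithelial markers to 22.8 to 123.9 against 0.176 to 8.03 CPM (2 of 3), and nephric markers to 6.80 to 47.9 against 0 to 6.70 CPM, with *Pax2* and *Pax8*, which define the nephric duct, at a median of 0. The 9 sympathoadrenal genes summed to 143.5 to 304.8 CPM in GFP+ and 7.93 to 51.97 CPM in GFP- ECs, with 3 of 3 tested called higher and 5 of 9, *Th* among them, at a median of 0 in GFP+ pools. The 5 pan-neuronal genes summed to 260.5 to 879.1 against 14.5 to 148.9 CPM, with 1 of 2 tested higher. The 7 neural crest and Schwann precursor genes summed to 9.13 to 103.8 CPM in GFP+ and 49.9 to 162.9 CPM in GFP- ECs, with none of 3 tested called. The part of cells other than endothelium in *Ret* and *Gfra2* was not tested.

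**Figure D5:**
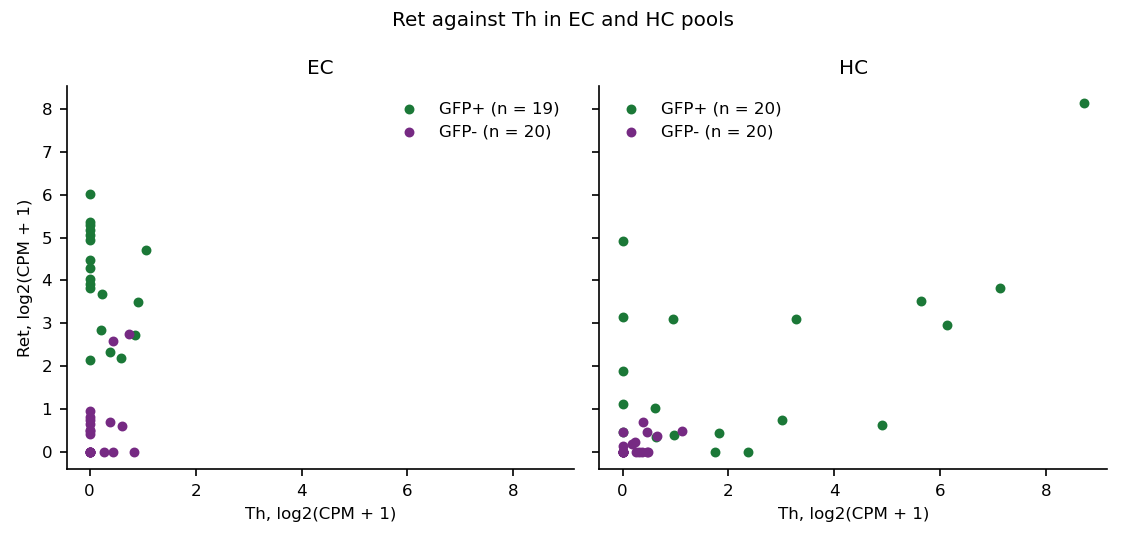
*Ret* (y axis, log2(CPM + 1)) against *Th* (x axis, log2(CPM + 1)) in EC pools (left) and HC pools (right), GFP+ in green and GFP- in purple, 1 point per pool. *Ret* is present in GFP+ EC pools where *Th* is at most 1.08 CPM, whereas 5 of the 8 GFP+ HC pools with at least 10 counts of *Ret* also hold at least 10 counts of *Th*, including the pool with 281 CPM of *Ret*.

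In hematopoietic cells 4 members were tested and all 4 were higher in GFP+ pools, where 17.1% of 16200 genes were called higher and 9.53% lower. At least 10 counts were reached in 13 GFP+ and 3 GFP- pools for *Ntrk2* and in 10 and 0 for *Gfra3*. For *Ret* these were 8 and 0 pools, and for *Gfra1* 6 and 1. None would have been tested on its GFP- pools alone, so the filter on low counts largely set their shared direction. *Gfra3* had 8.23 ± 8.20 CPM in GFP+ HCs (n = 20), and no GFP- pool had more than 1 count (6.36 ± 0.72, adjusted p 4.96e-09). *Ntrk2* had 11.3 ± 14.6 against 1.48 ± 3.62 CPM (2.93 ± 0.78, adjusted p 0.00271), and *Gfra1* had 3.53 ± 5.47 against 0.37 ± 0.619 CPM (3.20 ± 0.77, adjusted p 0.000873). *Ret* had 18.5 ± 62.1 CPM in GFP+ pools and at most 2 counts in any GFP- pool (7.16 ± 1.01, adjusted p 3.5e-07), so that the sizes of the fitted changes of *Ret* and *Gfra3* are no bounds. The pool of 281 CPM decided that mean: without it the mean was 4.74 ± 7.25 CPM (n = 19) and the log2 fold change 5.09 ± 0.75 (adjusted p 8.86e-07), where 15.7% of genes were called higher. With ERCC scaling *Ntrk2* missed the threshold (2.61, adjusted p 0.0101).

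Genes of other lineages were present in the same GFP+ HC pools. The pool of highest *Ret* also held 418 CPM of *Th*, 242 CPM of the neuronal gene *Elavl4* and 49.8 CPM of *Ntrk3*. Of the 8 GFP+ HC pools with at least 10 counts of *Ret*, 5 also had at least 10 counts of *Th*, against 7 of all 20. Sympathoadrenal genes summed to 13.04 to 1470 CPM in GFP+ and 1.44 to 70.7 CPM in GFP- HCs (8 of 9 were higher), and mesenchymal genes to 18.7 to 961 against 3.38 to 175 CPM (8 of 8). Without the 7 pools with *Th*, *Ntrk2* was the only member tested and was called (10.03 against 1.48 CPM, 2.70 ± 0.81, adjusted p 0.00888), at 23.9% of genes called in either direction. *Ret*, *Gfra1* and *Gfra3* had means of 3.91, 2.12 and 5.94 CPM in the 13 remaining GFP+ pools and reached 10 counts in too few of them to be tested.

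Over all kept pools, the genes whose log2(CPM + 1) was most like that of a member by Pearson correlation, among 19998 genes, were *Prdm6*, *Egfr* and *Pdgfrb* for *Ntrk2* (r = 0.91, 0.90 and 0.90), *Lama2*, *Rgs5* and *Iigp1* for *Ntrk3* (0.85, 0.84 and 0.84), and *Plxna4* and *Clvs1* for *Ret* (0.80 and 0.79). For *Gfra1* they were *Sox8*, *Erbb3* and *Cdh19* (0.91, 0.90 and 0.90), for *Gfra2* *Col20a1*, *Moxd1* and *Egfl8* (0.83, 0.83 and 0.81), and for *Gfra3* *Ngfr*, *Megf10* and *Cdh6* (0.86, 0.84 and 0.84). *Artn* was most like *Gli1*, *Cyp1b1* and *Tead3* (0.66, 0.63 and 0.63). These points share the 8 populations, and differences between cell types enter each r. *Pdgfrb* beside *Ntrk2* is a pericyte and mesenchyme gene and was the antigen of the MC sort, and *Ngfr* beside *Gfra3* that of the SNS sort. *Sox8* and *Erbb3* beside *Gfra1* are genes of neural crest and Schwann precursors.

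Within the 15 GFP+ SNS pools alone (14039 genes), the nearest genes were others. *Gfra3* was most like *Itm2a*, *Nid1* and *Col3a1* (r = 0.95, 0.94 and 0.90), the last 2 of which encode matrix proteins. *Ntrk3* was most like *Lypd1*, *Atp6v1b2* and *Syt14* (0.94, 0.91 and 0.90). Among the nearest to *Ret* were *Slc12a5* and *Alg10b* (0.80 and 0.79), *Gfra1* was most like *Ninl*, *Ago2* and *Gm43062* (0.82, 0.82 and 0.81), and *Gfra2* like *Zmynd19*, *Arhgef40* and *Zfp36l1* (0.87, 0.86 and 0.86). These genes were picked as the highest of all correlations over 15 pools and are given as a description only.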

How the data were processed

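RNA of 160 pools of 20 sorted AGM cells was sequenced (Smart-seq2 with ERCC spike-in RNAs and Nextera XT libraries, which do not keep the strand). The authors deposited raw HTSeq counts per gene, neither normalized nor filtered. The study's methods name STAR with Ensembl release 81, whereas the submitters' processing notes name GSNAP, HTSeq (0.5.3p3) and mm10. The table holds 46078 genes and 92 ERCC rows. Pools were placed by their column labels, which give the population but no replicate number.

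A pool passed if more than 500000 reads fell on genes or spike-ins, more than 20% fell on genes, and mitochondrial genes and spike-ins each took less than 20%. Of all reads, 38.3 to 67.6% were assigned to no gene or spike-in by the counting step. SNS pools with more raw *Pdgfrb* than *Ngfr* counts were left out, which left 147 pools. The test was edgeR's quasi-likelihood test (edgeR 4.0.16, R 4.3.3) after TMM scaling, with robust dispersions and p-values adjusted by Benjamini-Hochberg. It covered genes reaching 10 counts in 5 or more pools of a comparison. CPM are counts over the TMM-scaled library size. The cDNA was amplified and carried no molecular identifiers. On simulated counts for the SNS comparison (15139 genes), the test called 56.6% of genes changed 2-fold and 83% of those changed 4-fold, with 1 false call. Single values used permutation tests (scipy 1.17.1). DESeq2 1.42.0, scran 1.30.0 factors, the study's scanpy 1.11.5 test, ERCC scaling, other filters and other choices of pools were alternatives, 2 of them added after the data were seen. The text names the 8 members in every comparison, the other genes of fixed pathway lists that passed in SNS cells or are ligands or receptors, and up to 3 genes most like each member. Some genes of these lists, and an alternative that rested on one of them, are not reported here. Members and lists were chosen with earlier results of these data known. Symbols were matched by Ensembl ID to GENCODE release 21 (45229 of 46078 IDs). Upstream sequences are from RefSeq (GRCm38.p6), and shared coding runs were read from GENCODE transcripts (GRCm38).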

Additional observations from a re-analysis of the deposited data

Results flagged for a closer look

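The change of *Ret* with GFP was larger in SNS cells than in MCs by 4.45 on the log2 scale, and that of *Gfra3* was lower there (-4.21), by the interaction test of the 4 E11.5 populations. Both were smaller, 3.23 and -2.41, without the 6 MC pools in which *Ngfr* exceeded *Pdgfrb*. In the other MC pools *Ret* had means of 0.314 (GFP+) and 0.783 CPM (GFP-), too low to be ranked, so the size of its difference is no bound.

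In the 6 SNS pools left out for high *Pdgfrb*, *Ntrk2* had a median of 140 CPM, and all 6 lay above the highest kept SNS pool (13.7 CPM). The medians of *Ntrk3* (28.8 CPM) and of the ligand gene *Artn* (4.77 CPM) also lay above the highest kept pool (19 and 4.16 CPM), but pools of both genes fell within the range of the kept pools. Among these pools *Ntrk3* was at 13.4, 13.7 and 14.9 CPM in the 3 labelled GFP+ and at 42.7, 44.1 and 70.1 CPM in the 3 labelled GFP-, and *Gata3* was at 9.97, 12.6 and 24.2 CPM and at 44.15, 45.06 and 49.98 CPM. In MCs the higher of both genes was on the GFP+ side. In the 6 MC pools of high *Ngfr*, *Gfra3* was at 126.8 to 231.4 CPM in the 3 labelled GFP+ and at 12.8, 23.5 and 27.1 CPM in the 3 labelled GFP-. In kept SNS pools *Gfra3* was higher on the GFP- side. In both sets of 6 *Gata3* was lower in each pool labelled GFP+ than in each labelled GFP-, opposite to the other pools of these cell types taken by their means. The 12 pools stand in the count table as 2 runs of 6 adjacent columns, 1 run labelled SNS and 1 labelled MC, with GFP- and GFP+ alternating in each. How they came to differ from their labels was not tested.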

How the results depend on the processing

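No paired analysis was possible because the columns of the count table carry a population and no replicate number, so the replicate block could not be fitted. Of the other values under alternatives, 88 counts and 278 single-gene values stayed the same, and 8 single-gene values passed only under the alternative and 14 only in the comparison as reported. The cause of a change was not tested unless the alternative itself shows it.

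Genes called in SNS cells (1631) became 4460 with ERCC scaling, 625 with the 6 *Pdgfrb*-high pools kept, 895 in one fit of 4 populations, 2643 at an adjusted p under 0.05 and 799 beyond a log2 fold change of 1. Members called (4) became 2, 1 and 1 under the first 3 of these, and 2 to 4 when each pool was left out in turn (1470 to 1648 genes). With the 6 pools kept *Ntrk3* reversed to -0.92. *Gfra1* also missed the threshold with the study's own test (-0.55, adjusted p 0.0254) and *Gfra2* with no gene filter (-1.12, adjusted p 0.0108).

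In MCs 698 genes became 381 with ERCC scaling and 1585 without the *Ngfr*-high pools, and members called went from 1 to 3. *Gfra1* reversed to -0.12 (ERCC) and -2.96 (without the pools), *Gfra3* to -0.18 (without the pools) and *Ret* to 0.35 (DESeq2). With a filter of 10 counts in 20 pools, fewer genes being tested, members called fell from 3 to 1 in ECs, from 4 to 0 in HCs and from 3 to 1 for SNS against MC in GFP+ cells. Without the 7 pools with 10 or more *Th* counts, a choice made after the data were seen, 1 member was called in HCs.

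For SNS against MC in GFP+ cells 5240 genes became 10026 with ERCC scaling, members called became 6 without the *Ngfr*-high pools, and *Gfra3* reversed to 0.03 and 1.46 under these. In GFP- cells 2239 genes became 908 with the *Pdgfrb*-high pools kept and 3412 without the *Ngfr*-high pools. Members called became 3 with the former, and *Ret* reversed to 5.01 without the latter and to 0.57 with DESeq2. For the interaction 1780 genes became 2860 with ERCC scaling. Members called went from 2 to 4 without the *Ngfr*-high pools, where *Gfra1* and *Gfra2* reversed to 2.46 and 0.74, and *Artn* reversed to 0.03 with the *Pdgfrb*-high pools kept. At this depth 3 counts equal about 0.68 to 2.17 CPM, so levels under that cannot be ranked.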

Other observations

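*Gdnf* had its highest mean in GFP+ MCs (18.04 ± 11.2 CPM, n = 17) and was at 0.171 ± 0.482 CPM in GFP+ and 4.46 ± 4.24 CPM in GFP- SNS cells, where *Gfra1* had means of 50.8 and 76.1 CPM. *Ntf3*, the TrkC ligand, had its highest mean in GFP- MCs (16.2 ± 9.15 CPM, n = 14) and *Bdnf*, the TrkB ligand, had about equal means in GFP+ and GFP- MCs (20.3 ± 12.1 and 20.99 ± 10.3 CPM). *Nrtn* stayed at means of at most 4.08 CPM in all 8 populations.

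*Ptn* had a mean of 674 ± 181 CPM in GFP- MCs, 439 ± 192.7 CPM in GFP+ MCs, 339 ± 224 CPM in GFP+ HCs and 63.8 ± 78.6 CPM in GFP+ ECs, against 10.4 ± 13.4 CPM in GFP- HCs and 4.78 ± 3.51 CPM in GFP- ECs. The receptor gene *Alk* had a median of 0 in all of them.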
